A study of Mus musculus with 4 samples.

Results

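A set of 10 genes of the suprabasal and cornifying layers of the epidermis was examined in bulk RNA of 4T1Ch9 mammary tumors. They were Krt1, Krt10, Krt2, Flg, Krtdap, Sbsn, Dsg1a, Calml3, Dsc1 and Ivl, and the members were all 14 probe sets whose only gene symbol in the annotation of the array is 1 of these 10, out of 45037 probe sets tested and 17097 named genes in all. All 10 genes were found on the array, and Sbsn, Dsc1 and Ivl are the 3 that have more than 1 probe set. The rule uses no measured value, and the question was whether the tumor samples carried RNA of cornifying skin and whether it differed between vehicle and MEKi. In every array 8 of the 10 read no higher than background, and Krt10 and Sbsn read above it.

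The tumors were grown from 4T1Ch9 cells, a cherry-tagged triple negative breast cancer line of Balb/c background, of which 50000 were injected into the mammary fat pad of female Balb/c wild-type mice aged 6 to 8 weeks. After 10 days of growth, mice were given vehicle or the MEKi trametinib, an inhibitor of the kinases MEK1 and MEK2, at 1 mg/kg daily for 7 days. Total RNA of the tumors, in bulk, was hybridized to Affymetrix MG-430PM arrays, 2 for the MEKi group and 2 for the vehicle group. All 4 share the same implanted line, and the host tissue is that of an immune-competent mouse. Nothing used here says whether each array stands for its own mouse, or whether overlying skin was taken with the tumors, so p-values reflect the spread of these arrays alone, which may be technical. No array of skin was analysed here, so no sample showed what these probe sets read where their genes are active.

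The epidermis is renewed from a basal layer of keratinocytes that make keratins 5 and 14. Cells that leave this layer switch to keratins 1 and 10, which pair with each other to form the intermediate filaments of the suprabasal layers, and later add keratin 2. In the upper layers filaggrin bundles the keratin filaments, involucrin is cross-linked under the membrane into the cornified envelope, and desmoglein 1 and desmocollin 1 hold the cells together in desmosomes. Because these genes are most active in stratified, cornifying epithelium, they serve as markers of skin in other tissues.

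Several of the 10 genes lie beside each other or in clusters of genes of the same layer. In the RefSeq table of GRCm38.p6, Krt2 and Krt1 are neighbors on chromosome 15, Sbsn and Krtdap flank Dmkn on chromosome 7 and Flg lies between Flg2 and Hrnr on chromosome 3, which also holds Ivl. Krt10 is on chromosome 11 and Calml3 is on chromosome 13. RefSeq promoter windows, from 250 bases before to 50 after the start of the gene, were found for 6 of the 10 genes. Windows of 4 genes are shown 5′ to 3′ on the strand of the gene, because Krt10 and Sbsn had readings above background in the tumors, Krtdap is the close neighbor of Sbsn, and Ivl is the classical gene of the cornified envelope. They are chr11:99389315-99389614 (minus strand), chr7:30751221-30751520 (plus strand), chr7:30787655-30787954 (plus strand) and chr3:92573686-92573985 (minus strand) of GRCm38.p6. Capitals mark the letters TGANTCA and TATAAA, the TATA box. TGANTCA takes in TGACTCA and TGAGTCA, the recognition sequences of AP-1 factors, but also TGAATCA and TGATTCA, so it is wider than the AP-1 site.
Krt10: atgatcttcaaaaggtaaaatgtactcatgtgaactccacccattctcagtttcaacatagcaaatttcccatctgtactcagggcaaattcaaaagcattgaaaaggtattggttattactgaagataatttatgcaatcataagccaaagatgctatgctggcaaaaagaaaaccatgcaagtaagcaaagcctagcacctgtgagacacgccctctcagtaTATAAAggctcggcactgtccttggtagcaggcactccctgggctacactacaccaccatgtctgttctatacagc
Sbsn: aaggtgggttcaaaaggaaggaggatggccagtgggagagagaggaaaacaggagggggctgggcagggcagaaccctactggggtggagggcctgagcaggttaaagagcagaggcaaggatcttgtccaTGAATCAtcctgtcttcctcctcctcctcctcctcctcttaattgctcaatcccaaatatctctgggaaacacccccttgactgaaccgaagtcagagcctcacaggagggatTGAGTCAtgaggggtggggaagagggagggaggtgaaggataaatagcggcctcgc
Krtdap: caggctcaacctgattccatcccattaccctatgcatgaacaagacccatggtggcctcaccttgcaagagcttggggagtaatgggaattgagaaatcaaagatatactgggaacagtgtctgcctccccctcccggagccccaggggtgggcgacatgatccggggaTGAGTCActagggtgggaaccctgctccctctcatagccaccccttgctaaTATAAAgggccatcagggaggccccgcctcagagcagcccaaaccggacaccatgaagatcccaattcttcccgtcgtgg
Ivl: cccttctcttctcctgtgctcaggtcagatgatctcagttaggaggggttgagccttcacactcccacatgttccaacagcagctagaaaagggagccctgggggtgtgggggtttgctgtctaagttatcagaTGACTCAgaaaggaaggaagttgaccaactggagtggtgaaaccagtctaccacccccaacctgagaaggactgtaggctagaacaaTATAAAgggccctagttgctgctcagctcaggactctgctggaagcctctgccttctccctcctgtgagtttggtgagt

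Both motifs were searched on both strands, where TGANTCA reads the same either way, and no match of one overlapped the other in these windows. TGANTCA was found in 4 of 6 member windows, those of Flg, Ivl, Krtdap and Sbsn, against 7.81% of 32851 windows of 300 bases in the table. Sbsn held it at 2 places, as TGAATCA and TGAGTCA, with first bases 119 and 6 bases before the start. The match in Flg was also TGAATCA, and those in Ivl and Krtdap were TGACTCA and TGAGTCA. The counts and the share of TGANTCA are therefore not those of the AP-1 site alone. TATAAA was found in 4 of 6, those of Flg, Ivl, Krt10 and Krtdap, against 13.6% of all windows. In Krt10, Ivl and Krtdap its first base lay 26, 29 and 30 bases before the start, but in Flg it lay 53 bases before. Among 72 listed other genes of cornification, 64 windows of 59 genes were found, of which 16 held TGANTCA and 19 held TATAAA. These matches describe the letters only, and the arrays measured no binding.

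The arrays did not group by their labels. Across all tested probe sets, which are not replicates of each other, MEKi 1 (as labelled) correlated with vehicle 2 at a Pearson's r of 0.992. The r was 0.978 between MEKi 2 and vehicle 1, but 0.927 between both MEKi arrays and 0.959 between both vehicle arrays. B cell and lymph node genes had a median log2 expression of 9.75 in MEKi 1 and 9.51 in vehicle 2, against 4.17 in MEKi 2 and 4.15 in vehicle 1 (13 genes). The labels were kept, and arrays go by them here. Whether a MEKi and a vehicle label had been exchanged was not tested. Every difference between MEKi and vehicle given here holds only for the labels as deposited.

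As a guide to the floor of the arrays, 86 probe sets of olfactory, vomeronasal and taste receptor genes, which are not expected to be active in these tumors, were taken as background on the same arrays. Their 95th percentile lay between 4.13 and 4.28 on the log2 scale, and their medians lay between 3.58 and 3.68. A probe set was taken to be above background where it lay over the 95th percentile in the same array. Of all 17097 genes, 66.3% were above background in all 4 arrays. Of the 10 skin genes, 2 were above background in all 4 arrays, Krt10 and Sbsn, and the other 8 were above it in none.

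**Figure D1:**
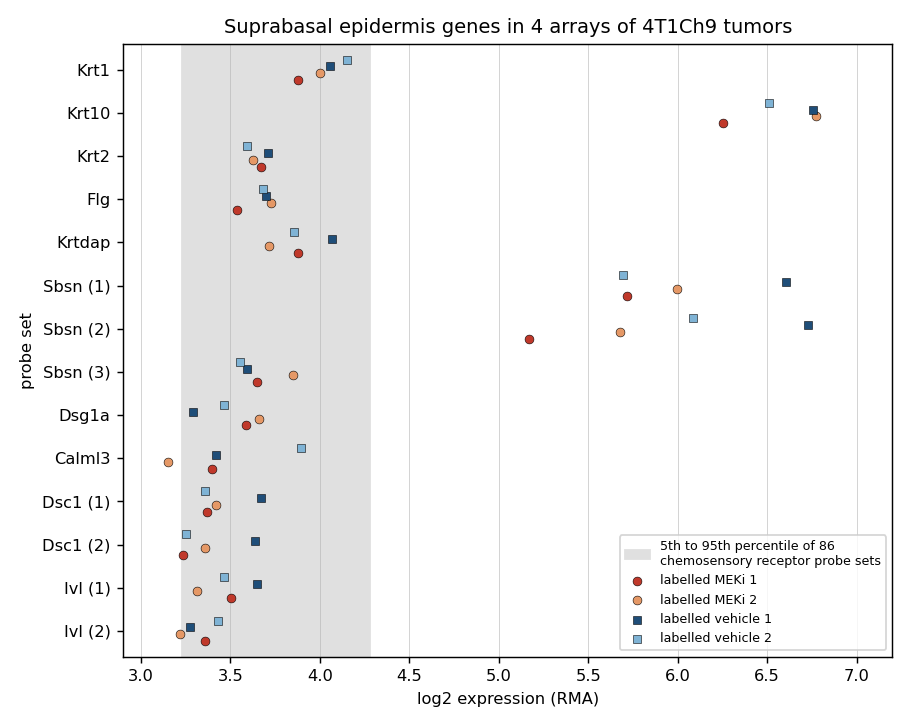
Log2 expression (RMA, horizontal axis) of the 14 probe sets of the 10 genes, 1 point per array, MEKi arrays as circles and vehicle arrays as squares. Numbers in parentheses count the probe sets of a gene from the brightest down, and the gray band spans the lowest 5th and the highest 95th percentile of 86 chemosensory receptor probe sets over the arrays. Krt10 and 2 probe sets of Sbsn lie between 5.17 and 6.77, and the other 11 probe sets lie at or below 4.15.

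Krt1 and Krt2, the type II keratins of the suprabasal layers, were at background in every array. Krt1 read 4.06 in vehicle 1 and 4.15 in vehicle 2, against 3.88 in MEKi 1 and 4.00 in MEKi 2. Both vehicle arrays lay above both MEKi arrays, but the whole spread of Krt1 was 0.28 log2 units, where the chemosensory probe sets had a median spread of 0.31. Krt2 read 3.67 and 3.62 in MEKi 1 and 2, and 3.71 and 3.60 in vehicle 1 and 2, the narrowest spread of the members, at 0.11.

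Krt10, the type I partner of keratin 1, was above background in each array. It read 6.76 in vehicle 1 and 6.51 in vehicle 2, against 6.25 in MEKi 1 and 6.77 in MEKi 2. The array labelled MEKi 1 was lowest, MEKi 2 and vehicle 1 differed by 0.016, and the groups overlapped. Within the arrays, Krt10 lay between the 60.1 and the 64.9 percentile of all tested probe sets, whereas Krt1 lay at or below the 34.8 percentile. Neither its partner Krt1 nor Krt2 read above background in any array in which Krt10 did.

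Sbsn, which encodes suprabasin, a secreted protein of differentiating keratinocytes, was the other gene above background, in 2 of its 3 probe sets. Its brightest probe set, of the type that can share probes with other sequences, read 5.71 and 5.99 in MEKi 1 and 2, and 6.60 and 5.69 in vehicle 1 and 2. A second one read 6.73 in vehicle 1 and 6.08 in vehicle 2, against 5.17 in MEKi 1 and 5.68 in MEKi 2. Both were highest in vehicle 1, but they disagreed on vehicle 2, which was the lowest array in the first, 0.022 below MEKi 1, and the next to highest in the second. The third probe set stayed at background, with 3.65 and 3.85 in MEKi 1 and 2, and 3.59 and 3.55 in vehicle 1 and 2. The simple epithelial genes Krt8, Krt18, Krt7 and Cldn3 were also highest in vehicle 1. Krt19, Epcam, Cdh1, Cldn4 and Cldn7 were instead highest in vehicle 2, and Elf3 in MEKi 2. Krt8 read 12.92 in vehicle 1 and 11.75 in vehicle 2, against 10.54 in MEKi 1 and 12.11 in MEKi 2. All 10 simple epithelial genes were above background in every array, with medians of 8.04 and 6.58 in MEKi 1 and 2, and 8.49 and 8.37 in vehicle 1 and 2. Their part in the readings of Sbsn was not tested.

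Krtdap, the neighbor of Sbsn, encodes another secreted protein of the same cells, and it was at background. It read 3.88 and 3.72 in MEKi 1 and 2, and 4.07 and 3.85 in vehicle 1 and 2. Dmkn, which lies between them and encodes dermokine, read 4.54 in vehicle 1 and 4.54 in vehicle 2, against 4.16 in MEKi 1 and 4.52 in MEKi 2, just above background.

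Filaggrin and involucrin, the structural proteins of late differentiation, gave no reading above background either. Flg read 3.53 and 3.73 in MEKi 1 and 2, and 3.70 and 3.68 in vehicle 1 and 2. The brighter probe set of Ivl read 3.65 in vehicle 1 and 3.47 in vehicle 2, against 3.50 in MEKi 1 and 3.31 in MEKi 2. The other probe set of Ivl lay between 3.22 and 3.43, so both were at the floor.

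The desmosomal cadherin genes of the upper epidermis, both in the cluster on chromosome 18, were at background too. Dsg1a read 3.59 and 3.66 in MEKi 1 and 2, and 3.29 and 3.47 in vehicle 1 and 2, and it was the 1 gene of the 10 whose MEKi arrays both lay above the vehicle arrays. The brighter probe set of Dsc1 read 3.67 in vehicle 1 and 3.36 in vehicle 2, against 3.37 in MEKi 1 and 3.42 in MEKi 2, and the other lay between 3.23 and 3.64. Both were highest in vehicle 1. Calml3, which encodes a calmodulin-like protein of epithelia, read 3.40 and 3.15 in MEKi 1 and 2, and 3.42 and 3.89 in vehicle 1 and 2. Its spread of 0.75 was the largest of the 11 probe sets at background. The spread of the other 10 lay below 0.66, the 95th percentile of the spread of the chemosensory probe sets.

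By label, MEKi was compared with vehicle with limma over all 45037 probe sets, and probe sets were called where the fold change exceeded 1.5, with p under 0.05 before and under 0.1 after adjustment. None of the 14 probe sets was called, and 0% of all probe sets were. With limma at an unadjusted p under 0.05 there was 1 of the 14, the second probe set of Sbsn, against 0.901% of all probe sets. For this probe set the mean was 5.42 ± 0.36 (SD, n = 2) with MEKi and 6.41 ± 0.46 (SD, n = 2) with vehicle, and limma gave a log2 fold change of −0.98 (SE 0.34, 95% interval −1.95 to −0.015, adjusted p = 1). The brightest probe set of Sbsn had a log2 fold change of −0.29 (SE 0.38, 95% interval −1.39 to 0.80, limma adjusted p = 1), and the groups overlapped.

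For Krt10 the mean was 6.51 ± 0.37 (SD, n = 2) with MEKi and 6.63 ± 0.18 (SD, n = 2) with vehicle. Its log2 fold change was −0.12 (SE 0.26, 95% interval −0.87 to 0.63, limma adjusted p = 1), so a fold change between 0.546 and 1.55 lies within the interval. Without MEKi 1 the log2 fold change of Krt10 was 0.14, and without vehicle 1 it was 0.0049, so its sign rested on single arrays. Without vehicle 1 that of the brightest Sbsn probe set turned to 0.16, whereas that of the second stayed between −1.30 and −0.66 whichever array was left out. Centring each array on the simple epithelial genes, which moved all genes up by 1.12 in the MEKi arrays relative to vehicle, turned the log2 fold change to 1.00 for Krt10 and to 0.83 and 0.14 for the first and second probe set of Sbsn.

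Among the 11 probe sets at background, the log2 differences by label ran from −0.38 for Calml3 to 0.25 for Dsg1a, and their 95% intervals lay within −1.10 and 0.74. A difference between readings at the floor does not measure a change in RNA. Over the 10 genes the median log2 difference by label was −0.13, beside 0.010 over all genes, and 9 of 10 had the lower mean in the MEKi arrays, beside 47.8% of all genes. Both rested on vehicle 1, without which the median was −0.023 and 5 of 10 were lower, beside 50.4% of all genes. With one of the other arrays left out, 7 to 9 of 10 were lower. Besides Krt10 and Sbsn, the sign turned for Flg without MEKi 1 (0.037), for Krt2 without MEKi 2 (0.018) or vehicle 1 (0.051), and for Dsc1 without vehicle 1 (0.037), 3 genes at the floor. Both MEKi arrays lay below both vehicle arrays in 2 of 10 genes (Krt1 and Calml3, 10.2% of all genes) and above them in 1 of 10 (Dsg1a, 11% of all genes). The array labelled vehicle 1 was the highest for 5 of 10 genes, beside 20.1% of all genes, but the median of the 10 genes differed little between arrays, with 3.70 in vehicle 1 and 3.77 in vehicle 2, against 3.63 in MEKi 1 and 3.69 in MEKi 2.

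**Figure D2:**
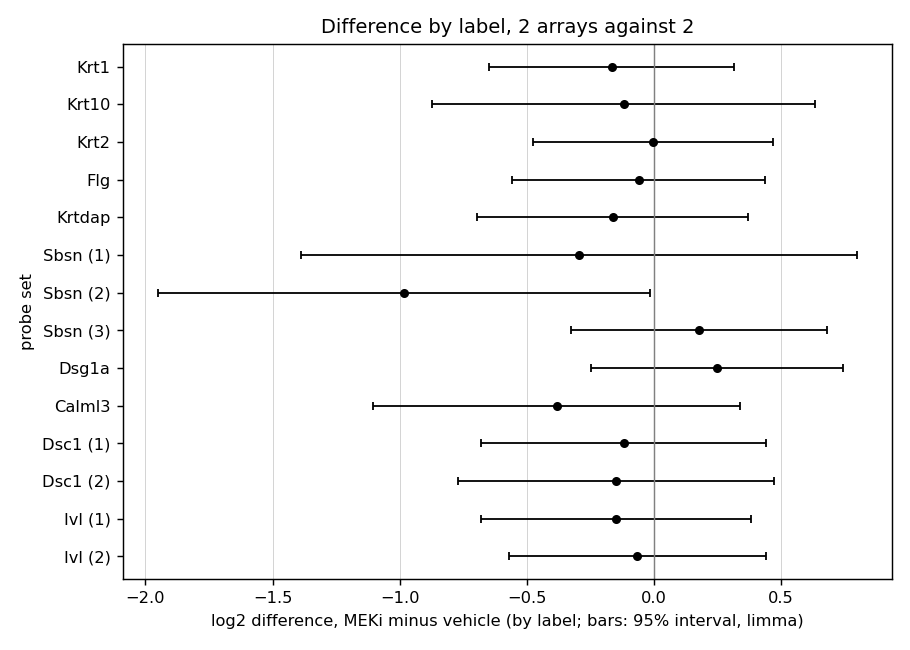
Log2 difference between the means of the MEKi and the vehicle arrays, by label (horizontal axis), for the 14 probe sets, with points for the estimate and bars for the 95% interval from limma (2 arrays against 2). Of the 14 intervals, that of the second Sbsn probe set (−1.95 to −0.015) is the 1 that leaves out 0.

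In none of the 6 pairs of arrays did a gene of the 10, read by its brightest probe set, differ by more than 1 log2 unit, where 8 of the 10 were at the floor and had little room to differ. The largest difference was 0.91, for Sbsn between vehicle 1 and vehicle 2. The second probe set of Sbsn was an exception, with a difference of 1.56 between MEKi 1 and vehicle 1. The 5 genes outside the set whose profile over the 4 arrays was nearest to the median profile of the 10, among the 4342 genes with a spread of at least 1, were Lmln, Egflam, Hspb1, Dbi and Maf, with a root mean square difference of 0.30 to 0.31 log2 units over the 4 arrays. As the median profile of the 10 genes moved only between −0.076 in MEKi 1 and 0.11 in vehicle 1 around its mean, this likeness is weak. The limit on spread also left out every gene as flat as that profile. These 5 genes, with spreads of 1.01 to 1.03, lay at the edge of the limit, so it largely set which were named.

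Other genes of cornification were partly above background. Of 72 listed genes of the cornified envelope, the lipid barrier and late differentiation, 54 were measured, with median log2 values of 3.93 and 4.06 in MEKi 1 and 2, and 4.07 and 3.98 in vehicle 1 and 2. Of the 54, 13 were above background in all 4 arrays, 18 in some and 23 in none, against 2, 0 and 8 of the 10 genes, a difference that was not tested. The count of 13 depends on the limit. Asprv1, Lce3a, Klk7, Dmkn and Tgm3, among the 13, lay under the 99th percentile of the background set in 1 or more arrays. Probe sets of Lce1h, Lce1i, Lce3c and Cysrt1, among the 13, are of types that can share probes with other sequences. Among the 23 were Lor, which encodes loricrin, the main protein of the envelope, Casp14, a protease of the cornified layer, Hrnr, a relative of filaggrin, and Alox12b, a lipoxygenase of the lipid barrier. Lor read 3.76 in vehicle 1 and 3.74 in vehicle 2, against 3.47 in MEKi 1 and 3.64 in MEKi 2.

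**Figure D3:**
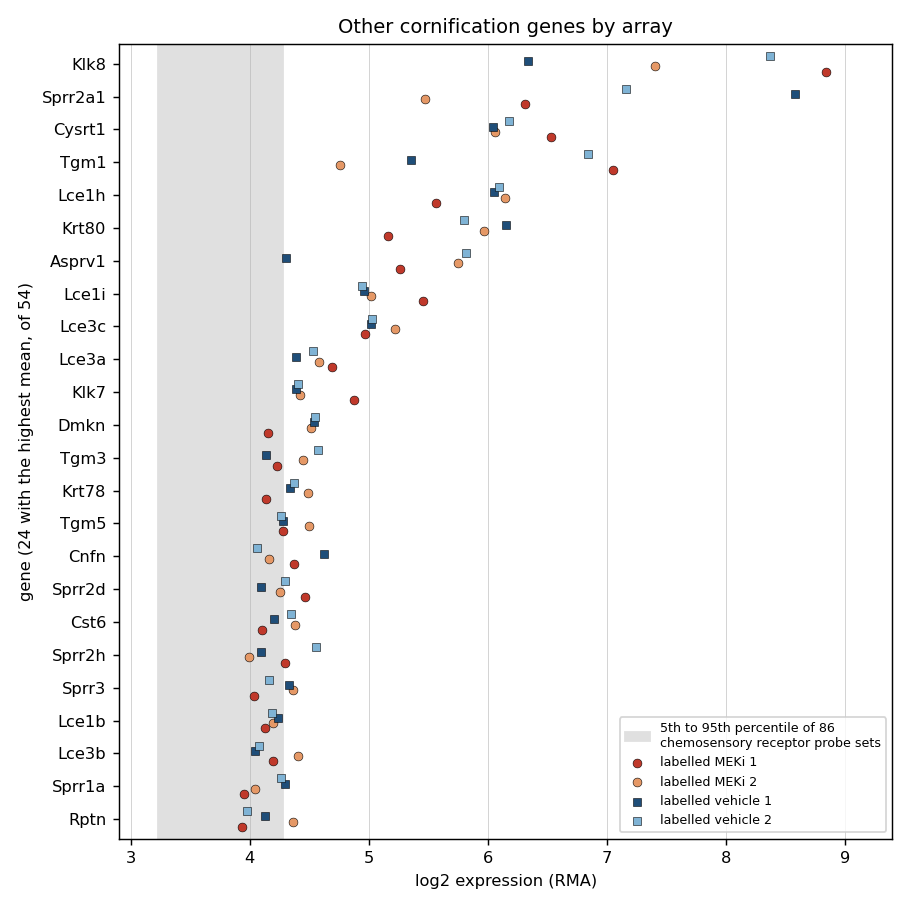
Log2 expression (RMA, horizontal axis) of the 24 other cornification genes with the highest mean, of 54 measured, 1 point per array, MEKi arrays as circles and vehicle arrays as squares, and the gray band as for the 10 genes. Klk8, Sprr2a1 and Tgm1 spread by more than 2 log2 units, from 6.34 to 8.84 for Klk8, and most genes lie near the band.

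The 8 genes of this list with the highest mean were Klk8, Sprr2a1, Cysrt1, Tgm1, Lce1h, Krt80, Asprv1 and Lce1i. Klk8, a secreted serine protease, read 8.84 and 7.41 in MEKi 1 and 2, and 6.34 and 8.37 in vehicle 1 and 2. Tgm1, which encodes the transglutaminase that cross-links the envelope, read 5.35 in vehicle 1 and 6.84 in vehicle 2, against 7.05 in MEKi 1 and 4.76 in MEKi 2. Both were highest in the arrays labelled MEKi 1 and vehicle 2, the arrays with the high B cell and lymph node genes, of which 12 of 13 spread by more than 2 log2 units. The part of these cells in Klk8 and Tgm1 was not tested.

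Sprr2a1, a small proline-rich protein of the envelope with near-identical copies in the genome, so that its probe set may read several, went another way. It read 6.32 and 5.47 in MEKi 1 and 2, and 8.58 and 7.16 in vehicle 1 and 2, and both MEKi arrays lay below both vehicle arrays. Its log2 fold change by label was −1.98 (SE 0.62, 95% interval −3.76 to −0.20, limma adjusted p = 1). Krt80, a keratin of differentiating epithelia, lay between 5.16 and 6.15, and Asprv1, a protease that processes filaggrin, lay between 4.30 and 5.82. Cysrt1, Lce1h and Lce1i spread by less than 0.6 each. By label, 0 of the 54 genes were called with limma, and 1 had an unadjusted p under 0.05 (Sprr2a1), beside 0.901% of all probe sets. The median log2 difference of the 54 genes was 0.041. Both MEKi arrays lay above both vehicle arrays in 14 of 54 and below them in 6 of 54, beside 11% and 10.2% of all genes.

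Regulators of epidermal differentiation were measured at higher levels, but most of them are active in other cells too. Of 11 measured, 8 were above background in all arrays, with medians between 6.19 and 7.12. Cebpb and Gata3 had the highest means of the list, and Gata3, a factor also of mammary epithelium and T cells, read 10.04 in vehicle 1 and 8.67 in vehicle 2, against 8.63 in MEKi 1 and 9.82 in MEKi 2. Grhl3 and Ovol1, which act in the barrier-forming layers, were above background in no array, with Grhl3 between 3.56 and 3.64 and Ovol1 between 3.41 and 4.05. Other factors of epidermal differentiation were above background in all 4 arrays. They included Zfp750, between 4.40 and 5.14, Grhl1, between 4.21 and 6.44, and Klf4, between 8.16 and 9.90. In MEKi 2, Zfp750 (4.63) and Grhl1 (4.21) lay under the 99th percentile of the background set, 4.67. Zfp750 also did so in vehicle 2, with 4.40 against 4.88. By label 0 of the 11 were called with limma, and 0 had an unadjusted p under 0.05, beside 0.901% of all probe sets.

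Genes of the basal layer were nearer to background than simple epithelial genes but not at the floor. Of 14 basal keratinocyte genes measured, 8 were above background in all arrays and 0 in none, with medians of 5.29 and 4.95 in MEKi 1 and 2, and 4.90 and 5.62 in vehicle 1 and 2. Itga6 and Dst, which anchor epithelia to the basement membrane and are active in other cells, had the highest means of the list. The defining keratins were above background in all 4 arrays. Within the arrays, Krt5 lay between the 50.9 and the 60.6 percentile of all tested probe sets, and Krt14 between the 48.4 and the 59.8 percentile. Krt5 read 6.21 in vehicle 1 and 6.32 in vehicle 2, against 5.48 in MEKi 1 and 5.07 in MEKi 2, and Krt14 read 5.37 and 4.84 in MEKi 1 and 2, and 6.25 and 5.78 in vehicle 1 and 2. The probe set of Krt14, the brighter of its 2, is of the type that can share probes with other sequences. The dimmer probe set of Krt14 is not given here. Over the 14 genes the median log2 difference by label was −0.24, within a range of −0.99 to 0.38. Both MEKi arrays lay below both vehicle arrays in 4 of 14 (10.2% of all genes) and above them in 0 of 14 (11% of all genes). Trp63, a factor of basal cells, had the highest difference, 0.38, and Krt5 had the lowest. Krt5 and Krt14 were among the 4, with log2 fold changes by label of −0.99 for Krt5 (SE 0.22, 95% interval −1.62 to −0.36) and −0.91 for Krt14 (SE 0.31, 95% interval −1.78 to −0.037). The limma adjusted p was 1 for both and 0 of the 14 genes were called. These 2 were the ones of the 14 with an unadjusted limma p under 0.05, beside 0.901% of all probe sets. Centring on the simple epithelial genes, which adds 1.12 to the log2 difference of every gene, gave 0.13 for Krt5 and 0.21 for Krt14. Fewer cells of a type and less RNA per cell cannot be told apart in bulk samples. Krt5, Krt14, Trp63, Dsc3, Dmkn, Grhl1, Grhl3, Klf4, Ovol1 and Zfp750 and the genes of the upper layers named with Lor were chosen after their values were seen. Dsc3, a desmosomal cadherin, read 4.03 in vehicle 1 and 8.11 in vehicle 2, against 8.52 in MEKi 1 and 3.83 in MEKi 2, high in the same arrays as the B cell genes.

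Other parts of skin were also near the floor. Of 21 hair follicle genes, 3 were above background in all arrays and 14 in none, with medians between 3.74 and 3.93, and Krt81 and Krtap3-1 had the highest means, between 5.02 and 5.43 and between 4.61 and 4.87. Of 5 sebaceous gland genes 0 were above background in all arrays (medians 3.83 to 4.10), and of 4 keratinocyte genes of wounded or hyperproliferative epidermis 1 was, Krt6a, between 4.37 and 4.58 (medians 3.98 to 4.28). Of 14 skeletal muscle genes, which would mark the muscle sheet under the skin, 4 were above background in all arrays (medians 4.00 to 4.21), and Mylpf read 6.08 and 5.12 in MEKi 1 and 2, and 4.77 and 5.79 in vehicle 1 and 2.

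Of 7 melanocyte and Langerhans cell genes, 3 were above background in all arrays and 4 in none (medians 3.76 to 4.11). Cd207, which encodes langerin of Langerhans cells and of some other dendritic cells, read 4.26 in vehicle 1 and 6.96 in vehicle 2, against 6.71 in MEKi 1 and 4.54 in MEKi 2. It was high in the arrays with the high B cell and lymph node genes, and their part in it was not tested. Sox10, a factor of melanocytes and mammary epithelium, lay between 5.21 and 6.02.

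Genes of stroma and of simple epithelium, in contrast, were plainly measured. Which of these readings came from tumor cells and which from host tissue was not tested. Medians lay between 7.98 and 9.76 for 10 fibroblast genes, between 5.86 (MEKi 2) and 9.30 (vehicle 1) for 12 adipocyte genes and between 6.58 and 8.49 for 10 simple epithelial genes. Fabp4 of adipocytes read 11.99 and 10.96 in MEKi 1 and 2, and 12.68 and 12.62 in vehicle 1 and 2. Reference genes used by every cell had medians between 12.96 and 13.04. None of the lists of other skin parts, muscle, stroma, simple epithelium, B cells or reference genes had a gene called by label with limma. At an unadjusted p under 0.05 limma gave 3 of 12 adipocyte, 2 of 10 fibroblast, 1 of 10 simple epithelial, 1 of 14 skeletal muscle and 1 of 7 melanocyte and Langerhans cell genes, and 0 in the other 5 lists. The share over all probe sets was 0.901%. Both MEKi arrays lay below both vehicle arrays in 10 of 12 adipocyte, 6 of 10 fibroblast and 5 of 10 simple epithelial genes (10.2% of all genes). They lay above them in 0 of 12, 1 of 10 and 0 of 10 (11% of all genes). Lower readings in the MEKi arrays, by label, were thus not particular to the basal keratinocyte genes.

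**Figure D4:**
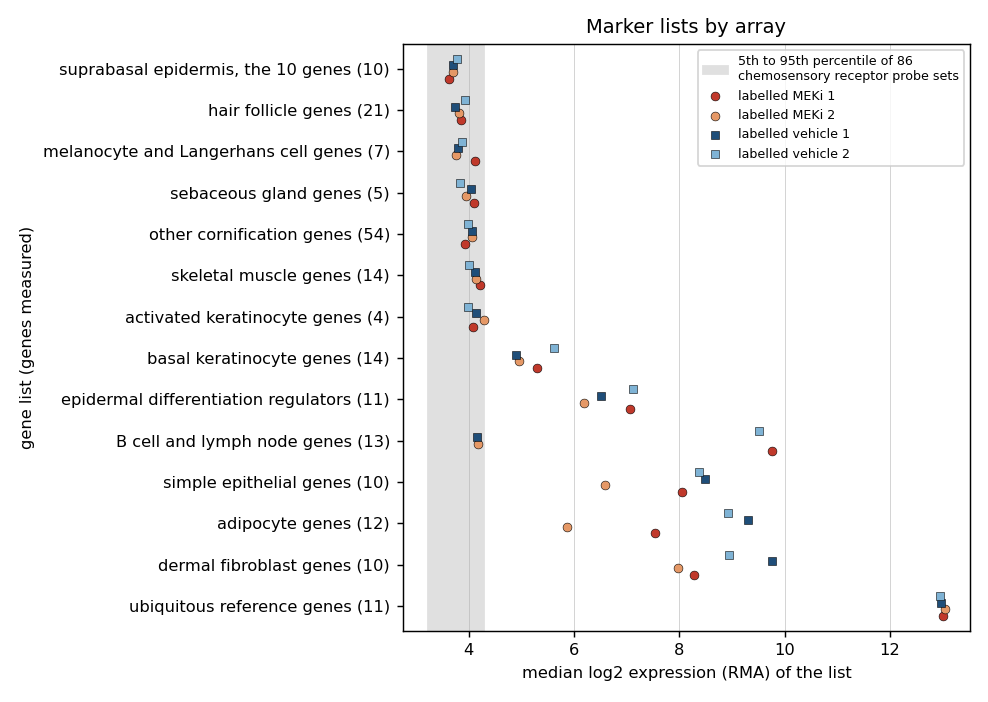
Medians of 14 gene lists (horizontal axis, log2 RMA values), 1 point per array, with counts of measured genes in parentheses, MEKi arrays as circles, vehicle arrays as squares and the gray band as for the 10 genes. The 10 suprabasal genes lie lowest, between 3.63 and 3.77, near the hair follicle, melanocyte and Langerhans cell, sebaceous gland and other cornification genes, and the B cell and lymph node genes lie at 9.75 and 9.51 in MEKi 1 and vehicle 2.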

How the data were processed

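Gene expression was measured on 4 Affymetrix MG-430PM arrays. The values deposited are on the log2 scale. The authors made them by RMA, using AFFY in R, including quantile normalization, with versions not given in the sources used here. Scanner files were not used here, and a detection call for each probe set was not analysed here. Precision is limited by the number of arrays.

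The table holds 45141 probe sets, from which 104 controls were removed. A single symbol was given by the platform annotation for 28898 of the 45037 left, several for 551, which were not used by name, and none for 15588, which are unnamed here. Entrez identifiers of all 10 members matched the RefSeq table. A gene with more than 1 probe set is represented by its brightest (highest mean of the 4 arrays). Labels were compared, two-sided, by lmFit and eBayes of limma 3.58.1 (R 4.3.3), with Benjamini-Hochberg adjustment over all tested probe sets, at the thresholds of the study (p under 0.05 before and 0.1 after adjustment, fold change over 1.5). The fit was tested on simulated data. Tables and figures were made in Python 3.11.15 (pandas 2.3.3, numpy 2.4.6, matplotlib 3.10.9).

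The 14 gene lists, of which the members are 1, were chosen with earlier results of these data known. The background set of chemosensory receptor probe sets was chosen after the values were seen. Named genes were, by the rule, the 10 members, the 8 brightest other cornification genes, the 2 brightest of each other list and the 5 genes of the nearest profile. Some of the brightest are given by their list only.

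The alternatives tried were a stricter adjusted p (0.05), an intensity trend in eBayes, unmoderated variances, a filter on the dimmest probe sets (0.25 of them), centring on simple epithelial or on reference genes, a block for the replicate number, each array left out, and averaging the probe sets of a gene. Deviations of arrays with the same number from their label means ran in opposite directions (r = −0.764 across probe sets), so the numbers were not taken to pair the arrays.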

Additional observations from a re-analysis of the deposited data

How the results depend on the processing

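In all alternatives Krt10 and Sbsn were the 2 genes of the 10 above background (the 99th percentile or the median of all probe sets as the limit, averaging the probe sets of a gene, and without each array), settings chosen after seeing the data. No other cornification gene was called under any alternative, and no member probe set under any that kept probe sets apart. With the probe sets of a gene averaged, calls of members were not counted. Over all probe sets 0 were called, except 6 when arrays were centred on simple epithelial genes, which moved all genes up by 1.12 in the MEKi arrays relative to vehicle. Under that centring the median of the 10 genes by label was 0.99, that of the other cornification genes 1.16, and the log2 fold change was 1.00 for Krt10 and 0.83 and 0.14 for the first and second probe set of Sbsn. These signs follow the shift of all genes.

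Centring on reference genes gave a median of −0.19 for the 10 genes, and the genes above the median of all probe sets, Krt10 and Sbsn, gave −0.21. With each array left out in turn, this median ran from −0.19 to −0.023 and that of the other cornification genes from 0.0012 to 0.075, while the log2 fold change ran from −0.38 to 0.14 for Krt10 and from −0.75 to 0.16 for the first and −1.30 to −0.66 for the second probe set of Sbsn. A lone array of a group was then assumed to vary like the other group. Without the dimmest probe sets 4 probe sets of 3 member genes were left. With the replicate block 0 probe sets were called, the median of the 10 genes stayed −0.13, and no other call changed. With the crossed pairing (MEKi 1 with vehicle 2), added after seeing the data, 0 were called. Readings at the floor bound what these arrays can show, since a gene with little RNA and one with none read alike.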
